A study of Rattus norvegicus with 15 samples.

Results

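The genes described here are 9 interferon response genes of the rat: the transcription factors Irf1, Irf7, Irf9 and Stat2, and the induced effectors Isg15, Ifit1, Oas1b, Gbp2 and Mx1. They were taken by symbol and gene number from a deposited table of 22436 genes, all 9 were found, and all 9 passed the filter on low values. RNA of prostate tissue of SD rats was measured by bulk RNA-seq in 15 samples, 5 in each of 3 groups. The LIPUS samples had low-intensity pulsed ultrasound, short bursts of sound waves given as a physical treatment, for 4 weeks. The intensity is uncertain: sample titles name 1.0 W/cm2, whereas the treatment field names 1.5 W/cm2. The Model samples had no treatment and belong to a rat model of CP/CPPS, chronic prostatitis with chronic pelvic pain. The series' design text says that the ultrasound was given to rats of this model. The Control samples had no treatment and no model. How the prostatitis was induced, the age of the rats and the prostate lobe are not given in the sources used here. Whether each sample is a separate animal is not labelled, and p-values therefore measure only how these samples vary, which could be technical variation.

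Interferons are secreted proteins that cells release when they sense viral or other foreign nucleic acid, or on immune activation. Type I interferons act through the receptor kinases Jak1 and Tyk2 on Stat2, which joins Irf9 in the complex ISGF3, and this complex switches on genes that carry an interferon-stimulated response element. Interferon gamma acts on genes that carry a gamma-activated site, and Irf1 is among its direct targets. Irf7 is itself induced by interferon and in turn drives the genes of type I interferons, so it amplifies the response. Among the effectors, Isg15 is a ubiquitin-like protein that is attached to other proteins, Ifit1 binds foreign RNA, Mx1 is a GTPase that blocks viruses, and Gbp2 is a guanylate-binding protein active against microbes inside cells. Oas1b belongs to the oligoadenylate synthetase family, whose active members start RNA decay on sensing double-stranded RNA; its mouse counterpart is known for resistance to flaviviruses.

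Promoter sequence was at hand for 7 of the 9 genes, from RefSeq on the build GRCr8, as 250 bases before to 50 bases after the gene start. It was searched on both strands for the core of the interferon-stimulated response element, which is GAAA, any 2 bases and GAAA again, and for TTCNNNGAA, the core of the gamma-activated site. The response element core was in 3 of the 7 windows (Irf7, Gbp2 and Oas1b), and in 3.92% of all 33469 promoters of the table. TTCNNNGAA was in 3 of the 7 windows (Irf1, Irf9 and Oas1b), and in 8.87% of all promoters. The windows of Mx1 and Stat2 held neither run of letters. The 4 sequences below belong to the genes whose levels the results turn on and that hold a match. Capitals mark the response element core on either strand in Irf7, Gbp2 and Oas1b, and TTCNNNGAA in Irf1.
Irf7 (chr1:205799974-205800273, minus strand): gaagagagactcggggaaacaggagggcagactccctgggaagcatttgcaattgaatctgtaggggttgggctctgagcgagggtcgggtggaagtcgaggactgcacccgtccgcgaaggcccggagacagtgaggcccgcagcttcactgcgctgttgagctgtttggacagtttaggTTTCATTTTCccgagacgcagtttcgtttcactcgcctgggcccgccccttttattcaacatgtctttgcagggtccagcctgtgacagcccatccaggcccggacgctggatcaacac
Gbp2 (chr2:234005477-234005776, plus strand): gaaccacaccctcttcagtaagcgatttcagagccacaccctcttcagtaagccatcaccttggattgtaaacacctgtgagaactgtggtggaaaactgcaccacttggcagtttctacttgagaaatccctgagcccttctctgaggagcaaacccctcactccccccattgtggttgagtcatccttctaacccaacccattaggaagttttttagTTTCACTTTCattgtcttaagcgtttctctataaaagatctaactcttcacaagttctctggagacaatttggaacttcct
Oas1b (chr12:41395803-41396102, minus strand): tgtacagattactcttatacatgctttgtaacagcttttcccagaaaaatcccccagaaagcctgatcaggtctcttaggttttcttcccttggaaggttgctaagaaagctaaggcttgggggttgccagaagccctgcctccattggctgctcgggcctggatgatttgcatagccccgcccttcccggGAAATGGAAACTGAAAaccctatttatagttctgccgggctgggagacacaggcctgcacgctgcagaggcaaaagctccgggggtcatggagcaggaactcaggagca
Irf1 (chr10:38417685-38417984, plus strand): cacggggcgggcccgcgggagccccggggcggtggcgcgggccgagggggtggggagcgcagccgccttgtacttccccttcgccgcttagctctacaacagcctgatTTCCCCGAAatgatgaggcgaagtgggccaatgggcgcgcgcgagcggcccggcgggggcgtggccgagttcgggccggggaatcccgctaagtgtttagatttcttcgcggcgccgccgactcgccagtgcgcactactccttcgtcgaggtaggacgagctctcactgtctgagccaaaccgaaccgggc
The match began 69 bases before the start in Irf7 and 31 bases before it in Gbp2, in both on the opposite strand. In Oas1b a pair of matches overlapped each other, the nearer one 53 bases before the start, and TTCNNNGAA stood 213 bases before it. In Irf1 the match stood 142 bases before the start. A match describes letters in the window and was not tested as a binding site.

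The libraries held 29672833 to 36401010 reads in genes. Reads of the 13 mitochondrially encoded genes took 43.0% to 83.3% of them in LIPUS samples, 23.5% to 43.5% in Model samples and 3.75% to 4.69% in Control samples. Genes with at least 1 read numbered 13035 to 15766 in LIPUS samples, 14195 to 16284 in Model samples and 17997 to 18868 in Control samples. A large mitochondrial share lowers every nuclear gene in FPKM (fragments per kilobase of gene, relative to library size), so the values below are scaled FPKM, divided by 1 factor per library that makes the typical gene level equal between libraries. The scaling left a median log2 change over the 12490 tested genes of -0.02 for LIPUS against Model, -0.16 for LIPUS against Control and -0.15 for Model against Control; without it these medians were -0.60, -1.48 and -0.90. The mitochondrial share and the number of genes detected moved with the groups, and their part in the results was not tested. Summed levels of 8 luminal cell genes of the prostate were 27530 to 175489 scaled FPKM in LIPUS samples and 40125 to 187284 in Model samples. In Control samples they were 68097 to 103357, so prostate secretory RNA was present in every library. These genes moved in different directions. In Model against Control samples 3 were called higher and 2 lower (limma, adjusted p under 0.05), and of all genes 15.3% and 20.2%. Scgb1d2 and Scgb2a1 had log2 changes of -4.78 and -4.86 there, and Krt18 one of 1.26. In LIPUS against Model 1 fell, where 186 of all 12490 genes fell, and in LIPUS against Control 2 rose (11.6% of all genes). The part of luminal make-up was not tested.

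In LIPUS samples 6 of the 9 interferon genes rose against Model samples: Irf7, Irf1, Isg15, Oas1b, Gbp2 and Mx1 (limma, adjusted p under 0.05 over all genes tested). Over all 12490 genes tested, 4.21% were called in this comparison and 2.72% were called higher. Ifit1 passed the filter on low values through its 5 Control samples, with 1 LIPUS sample and 0 Model samples over the limit, so its difference from Control samples is left out of the counts that follow and is described with the effectors. Of the other 8 genes, 6 rose in LIPUS against Control samples (Irf7, Irf9, Isg15, Oas1b, Gbp2 and Mx1) and 0 fell; over all genes 25.8% were called there, 11.6% higher and 14.3% lower. In Model against Control samples 3 of the 8 were called, Irf7 and Irf9 higher and Irf1 lower. There 35.5% of all genes were called, 15.3% higher and 20.2% lower, so those counts are close to the background. The median log2 change of the 8 genes was 1.78 for LIPUS against Model, 1.71 for LIPUS against Control and 0.25 for Model against Control. In bulk tissue, fewer cells of a type and less RNA per cell cannot be told apart.

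**Figure D1:**
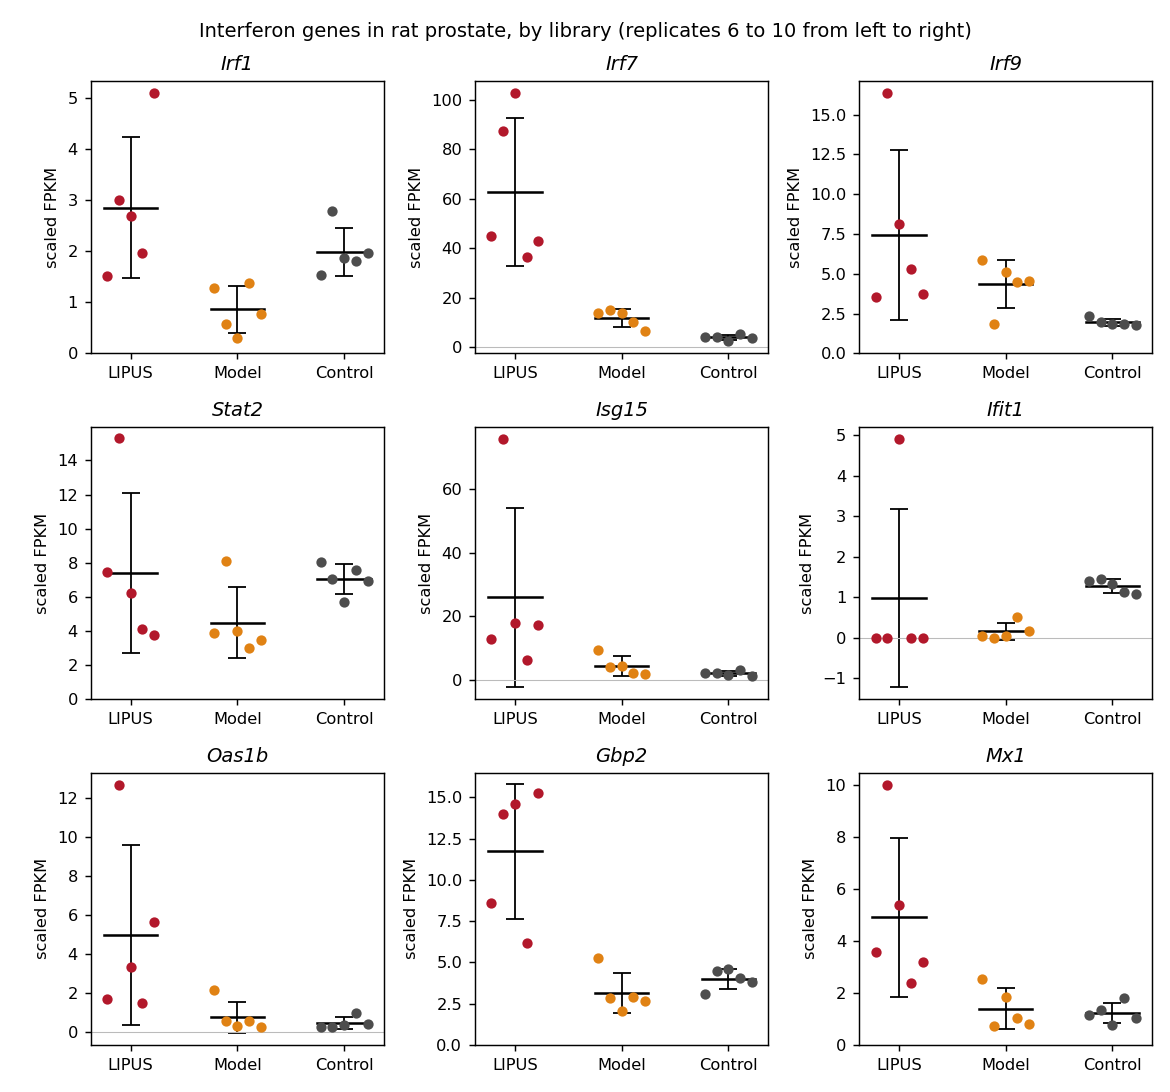
Scaled FPKM of each interferon gene in every library, with the group mean (line) and SD (bar, n = 5); the y axis of each panel has its own linear scale. Irf1, Irf7 and Gbp2 in LIPUS samples lay above every Model sample, and Ifit1 in LIPUS samples was at 0 in 4 of 5 libraries.

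Irf7 was the transcription factor that changed most. In replicates 6 to 10 it had 44.8, 87.4, 103, 36.4 and 42.9 scaled FPKM in LIPUS samples, 13.7, 14.8, 13.7, 10.1 and 6.36 in Model samples and 4.197, 3.91, 2.43, 5.08 and 3.48 in Control samples. No LIPUS sample overlapped a Model sample, and no Model sample overlapped a Control sample, so the 3 groups stood in 3 separate ranges. The means were 62.8 ± 30.04 in LIPUS samples, 11.7 ± 3.496 in Model samples and 3.82 ± 0.973 in Control samples (scaled FPKM, SD, n = 5 each). The log2 change was 2.35 (SE 0.32, adjusted p = 0.00333) in LIPUS against Model samples, 3.92 (SE 0.32, adjusted p = 6.31e-06) in LIPUS against Control samples and 1.57 (SE 0.32, adjusted p = 0.00143) in Model against Control samples. Of the 12490 tested genes, ordered from the highest log2 change down, Irf7 was number 25 in LIPUS against Control.

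Irf9, the DNA-binding subunit of ISGF3, showed 3.55, 16.4, 8.12, 5.28 and 3.74 scaled FPKM in LIPUS samples, 5.87, 1.85, 5.101, 4.51 and 4.55 in Model samples and 2.32, 1.97, 1.84, 1.84 and 1.804 in Control samples. Every LIPUS sample exceeded every Control sample, and 4 of 5 Model samples did so too, while LIPUS and Model samples overlapped. The log2 change of Irf9 was 1.63 (SE 0.38, adjusted p = 0.00615) in LIPUS against Control samples and 1.04 (SE 0.38, adjusted p = 0.0473) in Model against Control samples. Between LIPUS and Model samples it was 0.59 (SE 0.38, adjusted p = 0.339), which did not pass the test.

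Stat2, the partner of Irf9 in ISGF3, had 7.44, 15.3, 6.24, 4.14 and 3.75 scaled FPKM in LIPUS samples, 3.86, 8.13, 3.97, 3.003 and 3.45 in Model samples and 8.04, 7.05, 5.72, 7.58 and 6.92 in Control samples. LIPUS 7 and Model 7 were the high libraries of their groups, and all 3 groups overlapped. None of the 3 comparisons passed the test. The log2 change was 0.61 (SE 0.34, adjusted p = 0.272) in LIPUS against Model samples (95% interval -0.12 to 1.34) and -0.12 (SE 0.34, adjusted p = 0.829) in LIPUS against Control samples (95% interval -0.85 to 0.61). In Model against Control samples it was -0.73 (SE 0.34, adjusted p = 0.11), with a 95% interval of -1.46 to -0.0015 that left out 0. Model 7 alone among the Model samples reached the Control range. This fall was called in 4 of 11 alternatives and in 2 of the 15 fits with 1 library left out.

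Irf1, a direct target of interferon gamma, had 1.51, 3.01, 2.68, 1.97 and 5.098 scaled FPKM in LIPUS samples, 1.28, 0.571, 0.293, 1.37 and 0.777 in Model samples and 1.54, 2.79, 1.87, 1.81 and 1.97 in Control samples. Each Model sample was below each LIPUS sample and below each Control sample. LIPUS and Control samples overlapped. Irf1 rose by 1.66 (SE 0.38, adjusted p = 0.0294) on the log2 scale in LIPUS against Model samples. In Model against Control samples the log2 change was -1.26 (SE 0.38, adjusted p = 0.0183), a fall, and in LIPUS against Control samples it was 0.41 (SE 0.38, adjusted p = 0.469), which was not called. Thus Irf1 was lowest in Model samples, whereas Irf7 in Model samples lay between LIPUS and Control samples.

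Isg15, the ubiquitin-like modifier, had 12.9, 75.7, 17.8, 5.99 and 17.3 scaled FPKM in LIPUS samples, 9.36, 3.797, 4.25, 1.903 and 1.67 in Model samples and 2.11, 1.93, 1.502, 3.01 and 1.09 in Control samples. LIPUS 7 stood far above the other LIPUS samples, LIPUS 9 was the lowest of them, and it lay below Model 6. No LIPUS sample overlapped a Control sample. Mean levels were 25.9 ± 28.2 in LIPUS samples, 4.195 ± 3.0999 in Model samples and 1.93 ± 0.722 in Control samples (scaled FPKM, SD, n = 5 each). The log2 change was 2.34 (SE 0.57, adjusted p = 0.0373) in LIPUS against Model samples and 3.22 (SE 0.57, adjusted p = 0.000893) in LIPUS against Control samples, and 0.88 (SE 0.57, adjusted p = 0.249) in Model against Control samples, which was not called.

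Oas1b reached 1.71, 12.7, 3.32, 1.47 and 5.66 scaled FPKM in LIPUS samples, 2.16, 0.587, 0.299, 0.5599 and 0.2399 in Model samples and 0.274, 0.252, 0.358, 1.002 and 0.409 in Control samples. LIPUS samples all exceeded the Control samples, and among the Model samples only Model 6 reached the LIPUS range. In LIPUS samples the log2 change was 2.47 (SE 0.60, adjusted p = 0.0373) against Model and 2.87 (SE 0.60, adjusted p = 0.00294) against Control, and that of Model against Control samples was 0.41 (SE 0.60, adjusted p = 0.634). Oas1b lies in a cluster of related Oas1 genes whose reads can be split between copies, so its level is uncertain. Oas1a, another member of this cluster, had 6.11, 47.5, 19.1, 10.08 and 14.8 scaled FPKM in LIPUS samples, 5.57, 15.5, 3.51, 1.72 and 2.18 in Model samples and 3.0001, 2.46, 1.65, 3.68 and 1.94 in Control samples.

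Mx1, the antiviral GTPase, had 3.59, 9.999, 5.37, 2.39 and 3.18 scaled FPKM in LIPUS samples, 2.54, 0.745, 1.84, 1.05 and 0.817 in Model samples and 1.14, 1.35, 0.751, 1.805 and 1.05 in Control samples. It was above every Control sample in all LIPUS samples, but LIPUS 9 lay just below Model 6. Mx1 rose by 1.70 (SE 0.40, adjusted p = 0.0332) on the log2 scale in LIPUS against Model samples and by 1.79 (SE 0.40, adjusted p = 0.00457) in LIPUS against Control samples. Model and Control samples overlapped, with a log2 change of 0.09 (SE 0.40, adjusted p = 0.887).

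Gbp2 had the smallest relative spread in LIPUS samples of the raised effectors, with 8.62, 14.02, 14.6, 6.18 and 15.3 scaled FPKM in LIPUS samples, 5.24, 2.86, 2.07, 2.88 and 2.69 in Model samples and 3.08, 4.48, 4.59, 4.08 and 3.82 in Control samples. LIPUS samples were above all Model and all Control samples. The means were 11.7 ± 4.07 in LIPUS samples, 3.15 ± 1.22 in Model samples and 4.01 ± 0.606 in Control samples (scaled FPKM, SD, n = 5 each). The log2 change of Gbp2 was 1.85 (SE 0.28, adjusted p = 0.00525) in LIPUS against Model samples, 1.46 (SE 0.28, adjusted p = 0.00158) in LIPUS against Control samples and -0.40 (SE 0.28, adjusted p = 0.296) in Model against Control samples, the last not called.

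Ifit1, which binds RNA with foreign ends, was at 0 in 4 of 5 LIPUS samples and read in every Control sample, while the other 4 effectors rose in LIPUS against Control samples. It had 0, 0, 4.905, 0 and 0 scaled FPKM in LIPUS samples, 0.0433, 0, 0.0499, 0.514 and 0.174 in Model samples and 1.395, 1.45, 1.33, 1.14 and 1.08 in Control samples. These values rest on 0, 0, 206, 0 and 0 reads in LIPUS samples, 3, 0, 3, 32 and 13 reads in Model samples and 161, 176, 177, 140 and 114 reads in Control samples. A count of 0 allows up to 3 reads, which is 0.0399 to 0.144 scaled FPKM for Ifit1 in LIPUS libraries and covers counting error only. All 5 Model samples were below all Control samples, while LIPUS 8 was above every other library of the series. The log2 change was -2.65 (SE 0.92, adjusted p = 0.0452) in LIPUS against Control samples, -2.74 (SE 0.92, adjusted p = 0.03) in Model against Control samples and 0.09 (SE 0.92, adjusted p = 0.957) in LIPUS against Model samples. The call in LIPUS against Control samples stood in 5 of 10 alternatives, and the log2 change there ran between -0.67 at a pseudocount of 1 (limma, adjusted p = 0.215) and -5.21 at a pseudocount of 0.01. With no filter on low values Ifit1 was called in neither comparison with Control samples (limma, adjusted p = 0.0752 in LIPUS and 0.0539 in Model against Control). Without LIPUS 8 the log2 change in LIPUS against Control samples was -3.78. All remaining LIPUS samples were then at 0, so the pseudocount set their level and a p-value of that fit adds no support. LIPUS 7, where Isg15 had 1828 reads, held no read of Ifit1 and 180 reads of the related gene Ifit1bl. Ifit1bl had 0, 0.748, 0.439, 0.136 and 0.479 scaled FPKM in LIPUS samples, 0.122, 0, 0, 0.0402 and 0.0585 in Model samples and 0.0352, 0.0309, 0.0212, 0.0254 and 0.00885 in Control samples. How reads shared by both genes were counted is not given in the sources used here, so the level of Ifit1 is uncertain.

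**Figure D2:**
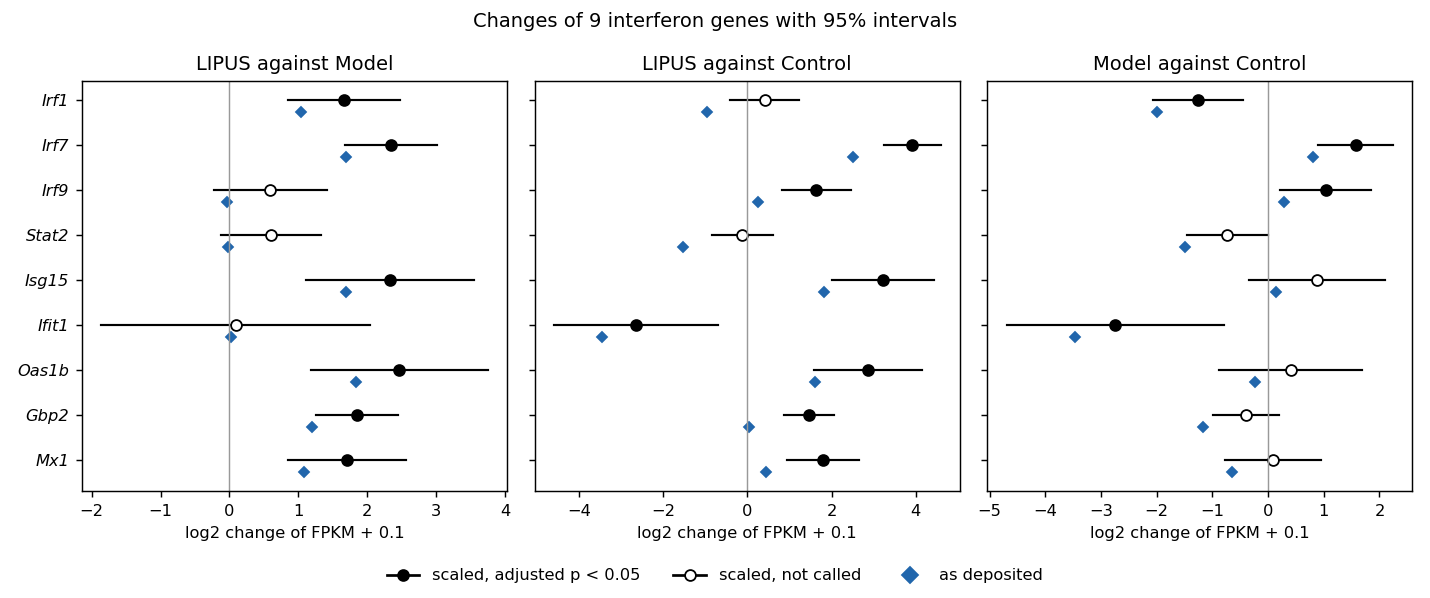
Log2 change of each interferon gene in the 3 comparisons, with the 95% interval of the fit on scaled FPKM (circles, filled where adjusted p is under 0.05) and the change of the values as deposited (diamonds). Irf7 lies to the right of 0 in all 3 panels on both scales, and every diamond lies to the left of its circle.

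In LIPUS against Model samples the calls of Irf7 and Gbp2 stood in 10 of 11 alternative settings and without any of the 15 libraries, while those of the other 4 genes depended on the setting. Irf1 was called in 6 of 11 alternatives, Mx1 in 6 of 11, Isg15 in 5 of 11 and Oas1b in 3 of 10. A fit with only LIPUS and Model samples called 1 gene of 12490 and none of the 9 (limma, 1998 genes at an unadjusted p under 0.05), with adjusted p = 0.0523 for Irf7 and 0.0709 for Gbp2. The SD of the log2 levels was larger in both LIPUS and Model samples than in Control samples for all 9 genes, and the fit of all 3 groups pools them. On the values as deposited only Irf7 (log2 change 1.69, limma adjusted p = 0.0293) and Gbp2 (1.205, adjusted p = 0.0408) were called, both higher, where 1.31% of all genes were called higher. Irf1 was no longer called without LIPUS 8, LIPUS 10, Model 8 or Model 10. Isg15 was called without LIPUS 7, LIPUS 9, Model 6 or Model 7, and lost the call without any 1 of the other 11 libraries. Mx1 was called without LIPUS 7, LIPUS 9, Model 6, Model 7, Control 7, Control 8 or Control 9, and Oas1b without LIPUS 6, LIPUS 7, LIPUS 9, Model 6, Model 7 or Control 9. Without Model 7 the comparison called 3997 genes in place of 526, and 6 of the 9.

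Scaled LIPUS and Model ranges were apart, LIPUS higher, for 3 genes (Irf1, Irf7 and Gbp2), where 1.63% of all genes were so; on the values as deposited no interferon gene had LIPUS and Model ranges apart (background for higher genes 0.536%). LIPUS and Control ranges were apart, LIPUS higher, for 6 genes (background 11.2%), and as deposited for Irf7 alone (background 0.416%). Model samples were above all Control samples for 1 gene, Irf7 (background 14.1%), and below them for Irf1 (background 18.3%), as well as for Ifit1, which passed the filter through its Control samples. As deposited, Model samples were below all Control samples for Irf1, Stat2 and Gbp2 (background 41.4%). Ifit1 was so too, but it passed the filter through its Control samples.

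Against Control samples, the rise of Irf7, Isg15 and Oas1b in LIPUS samples held in all alternatives and without any library. That of Irf9, Gbp2 and Mx1 held in all but the values as deposited, where the log2 change was 0.25 for Irf9, 0.05 for Gbp2 and 0.44 for Mx1, none of them called. With single libraries left out, the call of Ifit1 in this comparison stood only without LIPUS 8, Model 7 or Model 9. Without LIPUS 8 it adds no support, since all remaining LIPUS samples were at 0. In Model against Control samples, Irf9 was called only without LIPUS 6, LIPUS 7, LIPUS 10 or Model 7, and Irf1 lost its call without Control 7 (limma, adjusted p = 0.0501). Ifit1 there lost its call without Model 6, Model 8 or any Control library. As deposited, Irf7 in Model against Control samples had a log2 change of 0.81 (limma, adjusted p = 0.151), and Irf9 one of 0.28 (limma, adjusted p = 0.677), neither called. In all, the values as deposited gave 3 interferon genes called higher in LIPUS against Control (Irf7, Isg15 and Oas1b, background 0.953%). Irf1 and Stat2 were called lower there (background 74.4%), and Irf1, Stat2 and Gbp2 in Model against Control (background 43.1%). Ifit1 was called lower in both comparisons, but it passed the filter through its Control samples.

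The LIPUS libraries differed among themselves in how far the genes were raised. Against the Control mean, the median log2 difference of the 9 genes was 1.10, 2.99, 2.01, 0.97 and 1.36 in LIPUS 6 to 10, 1.05, -0.07, -0.35, -0.15 and -0.55 in Model 6 to 10, and -0.15 to 0.13 in the Control libraries. LIPUS 7 was the highest of all 15 libraries for 5 of the 9 genes (Irf9, Stat2, Isg15, Oas1b and Mx1), LIPUS 8 for Irf7 and Ifit1, and LIPUS 10 for Irf1 and Gbp2. Model 6 was the highest Model library for 5 of the 9 genes. Without LIPUS 7, 6 of the 9 genes were called in LIPUS against Model and 6 in LIPUS against Control, all higher. In that run 830 and 2992 of all 12490 genes were called in these comparisons, 502 and 1372 of them higher.

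**Figure D3:**
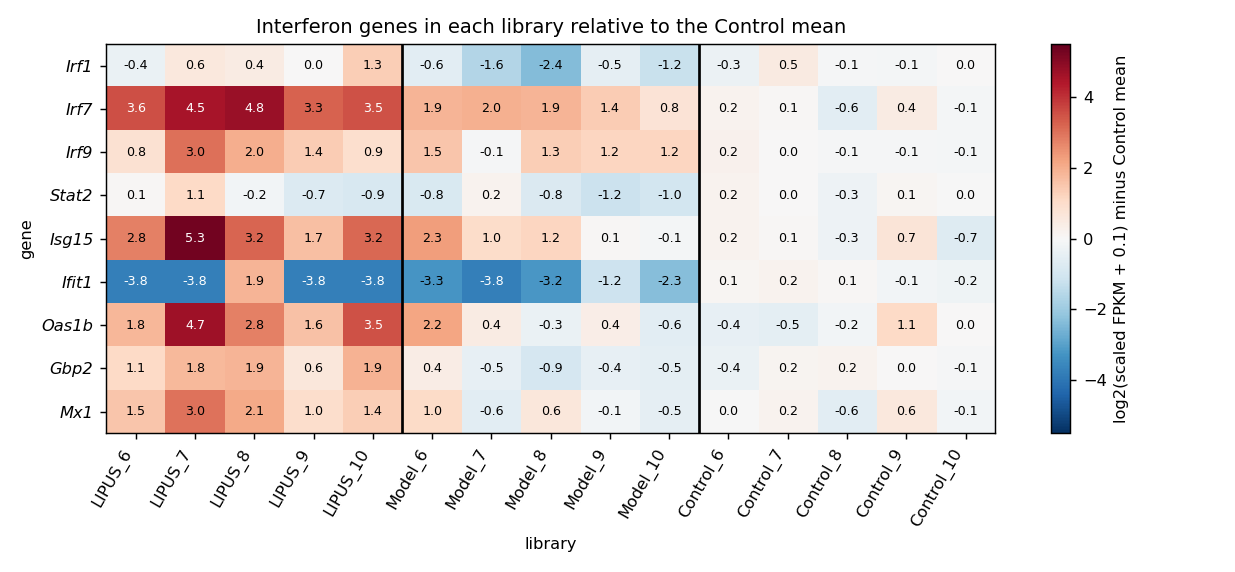
Log2(scaled FPKM + 0.1) of each interferon gene (rows) in each library (columns), minus the mean of the Control libraries; red is higher and blue is lower. Irf7 is red in all LIPUS and Model libraries, Irf1 is blue in the Model libraries, and Ifit1 is blue in every LIPUS library except LIPUS 8.

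Markers of macrophages and dendritic cells moved with these genes between the groups. Of 14 macrophage and dendritic cell markers 11 were tested, and 7 rose in LIPUS against Model samples, 6 in LIPUS against Control samples and none fell in either; in Model against Control samples 2 rose and 2 fell. The background for higher genes was 2.72%, 11.6% and 15.3% in these comparisons and that for lower genes in the last 20.2%, to which the Model against Control counts are close. As deposited, 6 rose in LIPUS against Model (background 1.31%), 5 rose and 1 fell in LIPUS against Control (background 0.953% higher and 74.4% lower), and 5 fell in Model against Control (background 43.1%). Their summed level was 122 to 401 scaled FPKM in LIPUS samples, 50.4 to 120 in Model samples and 56.0 to 72.0 in Control samples, and none of the 14 was without a read in a whole group. LIPUS 7, the highest library for 5 interferon genes, was the lowest LIPUS library for this sum. The table held 9 T and NK cell markers, of which 3 were tested. Their summed levels were 12.3 to 27.6 scaled FPKM in LIPUS samples, 2.75 to 13.4 in Model samples and 3.49 to 5.87 in Control samples. In LIPUS against Model only Cd4 was called (log2 change 2.68, background 2.72%), while Cd3g was at 0.35 and Cd8a at -0.43. In LIPUS against Control 2 rose, Cd3g and Cd4 (background 11.6%), and in Model against Control 1, Cd3g (background 15.3%). Ncr1, an NK cell receptor, had no read in Model samples. Endothelial markers summed to 2.06 to 3.66 scaled FPKM in LIPUS samples, 0.774 to 8.52 in Model samples and 10.2 to 18.3 in Control samples. Fibroblast markers summed to 71.8 to 474 in LIPUS samples, 53.2 to 156 in Model samples and 427 to 730.2 in Control samples, and basal cell markers to 13.6 to 115 in LIPUS samples, 4.07 to 46.2 in Model samples and 33.1 to 43.4 in Control samples. Model 7 was the lowest Model library for all 6 marker sums given here, those of luminal cells included. Its recovered reads differed from those of the other Model libraries by a chi-square of 824 to 1369 per degree of freedom, against 76.4 to 304 between the others, and without it 3997 genes were called in LIPUS against Model samples in place of 526. The part of cell make-up in the interferon results was not tested.

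**Figure D4:**
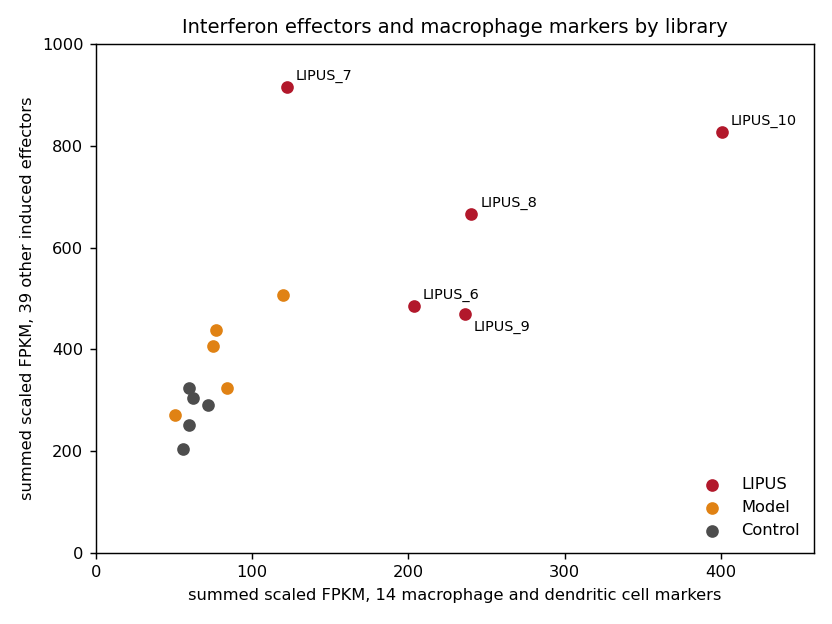
Summed scaled FPKM of 39 other interferon-induced effectors (y axis) against summed scaled FPKM of 14 macrophage and dendritic cell markers (x axis), 1 point per library. All 5 LIPUS libraries lie to the right of all Model and Control libraries, and LIPUS 7 has the highest effector sum with the lowest marker sum of its group.

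The rest of the pathway was followed in 7 lists of 90 genes, of which 81 were in the table and 69 were tested. Reads of the ligands were few. Only 3 of 11 were in the table and none passed the filter. Ifng had 9 reads in LIPUS samples, all in LIPUS 10, and none in Model or Control samples, while Ifna1 had 0 reads in LIPUS samples, 8 in Model samples and 3 in Control samples. At this depth a change of an interferon gene itself was not detectable.

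Among 9 receptors and kinases none was called in LIPUS against Model samples, 1 fell in LIPUS against Control samples and 4 fell in Model against Control samples. Ifnar1, a chain of the type I interferon receptor, averaged 1.75 ± 0.939 scaled FPKM in LIPUS samples, 1.54 ± 0.539 in Model samples and 3.61 ± 0.328 in Control samples (SD, n = 5 each), with a log2 change of -1.12 in LIPUS against Control (limma, adjusted p = 0.0180) and -1.26 in Model against Control (limma, adjusted p = 0.00682). The kinases Jak1 and Jak2 and the interferon gamma receptor chain Ifngr2 fell in Model against Control samples, by 1.25, 0.87 and 0.82 on the log2 scale. Over all genes 14.3% fell in LIPUS against Control and 20.2% in Model against Control. As deposited, all 9 fell in both comparisons with Control samples, where 74.4% of all genes fell in LIPUS and 43.1% in Model samples, and none was called between LIPUS and Model samples.

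Of the 7 other STATs and IRFs tested, Irf5, a factor of macrophage activation, rose in LIPUS against Control samples (log2 change 1.47, limma adjusted p = 0.0113). Irf2, which competes with Irf1 for its sites, fell in Model against Control samples (log2 change -1.32, limma adjusted p = 0.00272). None of the 7 was called in LIPUS against Model samples. As deposited none rose in any comparison, and 4 fell in LIPUS against Control and 3 in Model against Control. Of all genes, 74.4% and 43.1% fell there. Of 9 sensors and adaptors tested, Tlr7, which senses single-stranded RNA in endosomes, rose in LIPUS against Model samples (1.66, limma adjusted p = 0.0328) and in LIPUS against Control samples (1.75, limma adjusted p = 0.00432). Dhx58, a helicase of the RNA sensor family, rose in LIPUS against Control samples (2.07, limma adjusted p = 0.00120). No sensor was called in Model against Control samples. As deposited none of the 9 sensors rose, while 3 fell in LIPUS against Control and 1 in Model against Control. These shares were below the 74.4% and 43.1% of all genes that fell. On scaled values 2.72% of all genes rose in LIPUS against Model, 11.6% rose in LIPUS against Control and 20.2% fell in Model against Control.

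In the ISG15 cycle, Ube2l6, the enzyme that carries Isg15 to its targets, had a log2 change of 1.98 in LIPUS against Control samples (limma, adjusted p = 0.000369) and 1.16 in Model against Control samples (limma, adjusted p = 0.00905). Usp18, the protease that removes Isg15, rose in LIPUS against Control samples (2.43, limma adjusted p = 0.00943), with 75.5 scaled FPKM in LIPUS 7 and 4.32 to 14.5 in the other LIPUS samples, against 1.45 to 3.99 in Control samples. Trim25, a ligase, fell in Model against Control samples (-3.77, limma adjusted p = 0.000446). None of the 4 tested genes of the cycle was called in LIPUS against Model samples, and as deposited none rose in any comparison. Over all genes 11.6% rose in LIPUS against Control on scaled values, and 15.3% rose and 20.2% fell in Model against Control.

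Of 35 other induced effectors tested, 7 rose and none fell in LIPUS against Model samples, with a median log2 change of 1.201; 19 rose and none fell in LIPUS against Control samples, with a median of 1.06; and 6 rose and 1 fell in Model against Control samples, with a median of 0.06. As deposited the counts were 3 higher and 1 lower, 1 higher and 7 lower, and 0 higher and 11 lower, so the direction against Control samples turned with the scaling. The share of all genes called higher was 2.72%, 11.6% and 15.3% in these comparisons on scaled values, so the 6 that rose in Model against Control samples are close to the background. As deposited, 74.4% of all genes fell in LIPUS against Control and 43.1% in Model against Control, more than the share of effectors that fell. On those values 1.31% of all genes rose and 1657 of 12490 fell in LIPUS against Model, and 0.953% rose in LIPUS against Control. Ifi47, a GTPase induced by interferon gamma, averaged 6.94 ± 4.43 scaled FPKM in LIPUS samples, 1.04 ± 0.464 in Model samples and 1.86 ± 0.474 in Control samples (SD, n = 5 each), a log2 change of 2.53 in LIPUS against Model (limma, adjusted p = 0.00631). Bst2, which tethers budding viruses to the cell, averaged 48.4 ± 20.6 scaled FPKM in LIPUS samples, 12.2 ± 5.73 in Model samples and 12.6 ± 2.60 in Control samples (SD, n = 5 each), a log2 change of 2.001 in LIPUS against Model (limma, adjusted p = 0.00799). Ifi44 rose in LIPUS against Model (1.26, limma adjusted p = 0.0289), in LIPUS against Control (2.35, limma adjusted p = 6.42e-05) and in Model against Control (1.09, limma adjusted p = 0.00830). Ifi27 rose in LIPUS against Control (2.33, limma adjusted p = 7.13e-05) and in Model against Control (1.60, limma adjusted p = 0.000645). LIPUS 7 was the highest of the 15 libraries for 22 of the 35 effectors. Without it 5 rose in LIPUS against Model and 14 in LIPUS against Control, where 502 and 1372 of all 12490 genes rose.

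Of 5 feedback inhibitors, Socs1, which shuts off Jak kinases, fell in LIPUS against Model samples (log2 change -2.47, limma adjusted p = 0.0424), with 0 to 1.15 scaled FPKM in LIPUS samples and 0.780 to 2.43 in Model samples, and no other inhibitor was called in any comparison on scaled values. As deposited, 2 fell in LIPUS against Model, where 1657 of all 12490 genes fell. In LIPUS against Control 4 fell and in Model against Control 1, where 74.4% and 43.1% of all genes fell. Without LIPUS 7, 1 fell in LIPUS against Model, 1 fell in LIPUS against Control and 1 rose in Model against Control samples. Of all 12490 genes, 328, 1620 and 1891 did so. Socs1 had 56 reads over the LIPUS samples and 228 over the Model samples.

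For each interferon gene the 2 tested genes of most similar pattern over the 15 samples were sought, by the root mean square difference of log2 levels centred on each gene's mean; 0 means the same pattern. Irf7 was closest to Ifi27l2b (0.44) and MGC105649 (0.65). Ifi27l2b, a member of the interferon-inducible Ifi27 family, averaged 419 scaled FPKM in LIPUS samples, 75.7 in Model samples and 31.3 in Control samples. Isg15 and Oas1b shared Mx2, a relative of Mx1, as their nearest gene (0.58 and 0.61), followed by Ifi27l2b for Isg15 (0.60) and Ifit3 for Oas1b (0.80). Irf9 was closest to Ube2l6 (0.29) and Irgm2 (0.40), and Mx1 to Apol9a (0.40) and RT1-S3 (0.41), a class Ib gene of the major histocompatibility complex. Gbp2 was closest to Hcls1 (0.32), a gene of blood cells, and MGC108823 (0.40), and Irf1 to Ptprc (0.45), the leukocyte surface phosphatase CD45, and Lgals3bp (0.49). Stat2 was closest to Gpkow (0.28) and Patj (0.30), and Ifit1 to Rnf227 (0.74) and Snai1 (0.94). This distance grows with a gene's own spread around its mean, which was 0.60 for Stat2 and 1.90 for Ifit1 on the same scale. Among the 9 genes themselves, the closest pairs were Gbp2 with Mx1 (0.57) and Isg15 with Oas1b (0.57).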

How the data were processed

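Bulk RNA-seq of rat prostate was used, 15 samples with 5 each in LIPUS, Model and Control. The authors deposited 1 table of FPKM for 22436 genes, made from TRIzol RNA and VAHTS Universal V5 libraries per the labels' protocols. The submitters' processing notes name fastp, HISAT2, SAMtools, HTSeq, R 3.2.0, DESeq2 and the build rn6, without role or order. Strand is not given in the sources used here.

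The deposited FPKM were divided by median-of-ratios factors from 10313 genes above 0 in every library. Genes above 0.5 FPKM as deposited in at least 5 of 15 samples were tested, 12490 in number. Log2(scaled FPKM + 0.1) was fitted with limma 3.58.1 in R 4.3.3, with all 15 samples in 1 fit, a trend of the spread with level, and p-values adjusted by Benjamini-Hochberg over all genes tested; genes were called at an adjusted p under 0.05. Log2 changes are on this scale and understate changes of low genes. The shared spread assumes that the groups vary alike, and LIPUS and Model samples varied more than Control samples for all 9 genes. Adjusted p-values without another tool's name come from this fit.

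Reads per gene were recovered from the FPKM and were whole within 0.001 for all 22436 genes; limma-voom on them was an alternative. Scripts were tested on simulated data. Other alternatives were the scaling, pseudocount, filter, samples in the fit, sample weights, a replicate block and each library left out. Copies among libraries of a group were looked for and none was found (chi-square over degrees of freedom at least 75.1).

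The genes, pathway lists and marker lists were chosen with earlier results of these data known. Named list members are the 4 tested genes of each list with the smallest p over the 3 comparisons, given where called; some are not reported here. Oas1a, Ifit1bl and the reads of ligands were added after values were seen.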

Additional observations from a re-analysis of the deposited data

Results flagged for a closer look

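In 6 of 27 gene and group pairs 1 sample stood apart from the other 4 of its group, with a gap to its nearest neighbour of more than 0.71 of the group's range on scaled FPKM. Chance gives about 1 in 20 such pairs for normally distributed values; over all tested genes 10.1% of pairs were past this limit on scaled FPKM. On log2(scaled FPKM + 0.1), 2 of the 6 were past it, Ifit1 in LIPUS and Stat2 in Model samples, and 4 were not. Of all 27 pairs, 3 were past it on this scale, against 10.0% of pairs over all tested genes. The remaining pair was Irf9 in Model samples, with Model 7 at 1.85 scaled FPKM and the next at 4.51. In LIPUS 7 Isg15 was at 75.7 scaled FPKM, with the next LIPUS sample at 17.8. LIPUS 8 had 4.90 scaled FPKM of Ifit1, with the other LIPUS samples at 0. Model 7 had 8.13 scaled FPKM of Stat2, with the next Model sample at 3.97. Model 6 stood apart for Oas1b, at 2.16 scaled FPKM with the next at 0.587, and for Gbp2, at 5.24 with the next at 2.88. Control 9 had 1.002 scaled FPKM of Oas1b, with the next Control sample at 0.409. The cause of these values was not tested.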

How the results depend on the processing

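Irf7, Isg15 and Oas1b in LIPUS against Control kept direction and call in every alternative run. Genes called in LIPUS against Model, 526, became 1820 as deposited, 260 relative to summed nuclear FPKM, 271 with no filter, 1 with only both groups compared, 2565 with array weights and 81 with limma-voom on recovered reads; interferon genes called (Ifit1 counted), 6, became 2 as deposited, 2 with no filter, 0 with only both groups compared and 2 with limma-voom. Genes called in LIPUS against Control, 3228, became 9415 as deposited, and in Model against Control, 4433, became 7680 with array weights. In Model against Control the interferon genes, 4 with Ifit1 counted, became 2 with quantile normalization, with either other pseudocount (0.01 or 1) and with no filter. In these runs 4127, 4083 and 4726 of 12490 genes were called, and 4780 of 22436 with no filter. The counts of interferon genes there do not stand out from this background. The split of called genes, higher to lower, was 340 to 186 scaled and 163 to 1657 as deposited in LIPUS against Model, 1448 to 1780 and 119 to 9296 in LIPUS against Control, and 1911 to 2522 and 368 to 5382 in Model against Control. With 1 library left out, called genes ranged from 113 to 3997, 2385 to 4293 and 3606 to 5883 in these comparisons. Interferon genes called (Ifit1 counted) ranged from 2 to 6, 6 to 7 and 1 to 5.

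Changes of sign occurred only among values that were not called on scaled FPKM. As deposited the log2 change was -0.0344 for Irf9 and -0.0236 for Stat2 in LIPUS against Model, -0.97 for Irf1 in LIPUS against Control, and -0.24 for Oas1b and -0.64 for Mx1 in Model against Control; relative to summed nuclear FPKM the last were -0.0104 and -0.41. Ifit1 in LIPUS against Model was -0.0392 under quantile normalization, -1.19 at a pseudocount of 0.01, -3.91e-06 with array weights and -0.86 with limma-voom, and Stat2 in LIPUS against Control was 0.13 with array weights and 0.0190 with limma-voom. With 1 library left out, Ifit1 in LIPUS against Model ranged from -1.04 to 0.49, Stat2 in LIPUS against Control from -0.43 to 0.0713, Oas1b in Model against Control from -0.0291 to 0.69 and Mx1 in Model against Control from -0.15 to 0.26. The cause was not tested.

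Same-numbered samples correlated at -0.42 to 0.25 in their deviations from group means, and 0 of 15 samples correlated best with its own number, so the numbers were not taken to pair samples. A replicate block called 128 genes in LIPUS against Model, 2 of them interferon genes (Irf7 and Gbp2). Depth limits the ligands, whose reads were few.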

Other observations

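Another gene of the Oas1 cluster, Oas1f, did not follow Oas1b. It had 0.963 to 5.01 scaled FPKM in LIPUS samples, 3.27 to 8.71 in Model samples and 0.494 to 2.09 in Control samples, so Model samples were above all Control samples and overlapped LIPUS samples. Oas1k had 1.17 to 9.61 scaled FPKM in LIPUS samples, 0.131 to 14.01 in Model samples and 0.328 to 0.875 in Control samples, and all LIPUS samples were above the Control samples. Oas1e had 105 reads in LIPUS 7 and at most 3 reads in any other library. These genes were chosen after their values were seen, and no test was run on them.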
